A study of Caenorhabditis elegans with 2 samples.

Results

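The genes described here are the homeobox genes of Caenorhabditis elegans other than the Hox genes, their TALE-class cofactors and the regulators of touch receptor neurons. They were chosen by name: every gene named ceh with a number, except ceh-13, ceh-20, ceh-40 and ceh-60, together with 24 homeobox genes of other names, such as pax-3, lin-11 and unc-4. The rule gave 83 genes, 59 of them named ceh, among 19973 protein-coding genes. Names were those of Ensembl, which calls the CUT-class gene ceh-44 of RefSeq by the name cone-1 (WBGene00000464), so ceh-44 is not among the 83 and is described apart. Each was searched for summits of chromatin immunoprecipitation (ChIP) regions in the gene or within 5000 bp upstream of it. The study profiled VAB-15, a homeodomain transcription factor of the Msx class, by ChIP and sequencing in whole first-stage (L1) larvae of strain XIL99, of both sexes, that hatched and were held without food after bleaching. The vab-15 gene of these worms had been edited by CRISPR so that the protein ends in GFP and FLAG tags, and anti-GFP antibody was used to pull down sonicated chromatin. There was 1 group of 2 biological replicates, with no second genotype, stage or treatment to compare, and the control experiment named in the labels was not analysed here.

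Homeobox genes encode transcription factors that bind DNA through a homeodomain, usually at short AT-rich sites with a TAAT core. In this worm many of them fix the identity of single neuron types, often by acting on their own gene and on other homeobox genes, while others pattern the epidermis, the muscles or the pharynx. Binding of one homeodomain factor at the gene of another is a common part of such networks.

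The authors' files hold ranked regions, each with a signal value of their own, a -log10 q-value and a summit. A pooled list of 30000 regions and a list of 30000 regions for each replicate reach down into background by construction, and an optimal set of 990 peaks, the strongest of the pooled list, passed the authors' irreproducible discovery rate threshold. Signals in the pooled list ran down to 29.5, and in the lists of replicates 1 and 2 down to 21.6 and 12.4, so ranks rather than signals are compared between lists. The depth behind the lists is unknown. In whole larvae, few cells with a strongly bound site and many cells with a weakly bound one cannot be told apart. The gene of the tagged protein, vab-15, held 4 optimal peaks under the same position rule, the strongest at rank 16 with a signal of 403.

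ceh-38, pax-3 and ceh-21 of the 83 homeobox genes held an optimal peak. The summit windows of their 4 peaks are shown here because they are the sequence beneath the strongest signal at these genes. Each window reaches 50 bp to either side of the summit and was read from the plus strand of ce11 in the RefSeq genome of the same assembly (WBcel235). Capitals mark TAAT on either strand, so that it reads TAAT or ATTA.

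ceh-38, chrII:6951492-6951592: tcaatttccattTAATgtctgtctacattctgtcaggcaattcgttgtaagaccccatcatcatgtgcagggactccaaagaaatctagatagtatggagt
pax-3, intron 3, chrII:10147634-10147734: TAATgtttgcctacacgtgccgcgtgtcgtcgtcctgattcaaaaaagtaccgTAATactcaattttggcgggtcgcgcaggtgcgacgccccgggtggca
pax-3, intron 5, chrII:10149287-10149387: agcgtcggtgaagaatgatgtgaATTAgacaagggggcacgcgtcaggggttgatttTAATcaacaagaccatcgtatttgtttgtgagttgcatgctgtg
ceh-21, chrX:1853741-1853841: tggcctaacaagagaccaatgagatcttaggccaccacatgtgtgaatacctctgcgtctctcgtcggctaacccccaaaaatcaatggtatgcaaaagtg

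Of these 4 windows, 3 hold TAAT, and none holds TAATTG, the longer core that Msx-class homeodomains are known to prefer. TAAT on either strand lay in 52.7% of all 30000 regions of the pooled list in windows of this length, so its presence is common. The GC content of the windows was 55.5% in intron 3 of pax-3, 45.5% in its intron 5, 39.6% at ceh-38 and 47.5% at ceh-21. Windows of all optimal peaks averaged 46.3%, and those of all 30000 regions 41.3%.

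Few homeobox genes held strong VAB-15 signal. An optimal peak lay at 3 of 83 homeobox genes (3.61%, exact Clopper-Pearson 95% interval 0.752 to 10.2), against 9.28% of all protein-coding genes. With every pooled region of q at or under 0.01 counted, 7 of 83 homeobox genes were reached (8.43%, exact 95% interval 3.46 to 16.6), against 16.6% of all protein-coding genes. Both intervals include the share of all genes, the second only at its upper end. Any region of the pooled list lay at 57 homeobox genes (68.7%), against 74.7% of all protein-coding genes. The intervals cover counting error over genes only, which are not replicates, and 1 summit can count for several neighbouring genes.

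**Figure D1:**
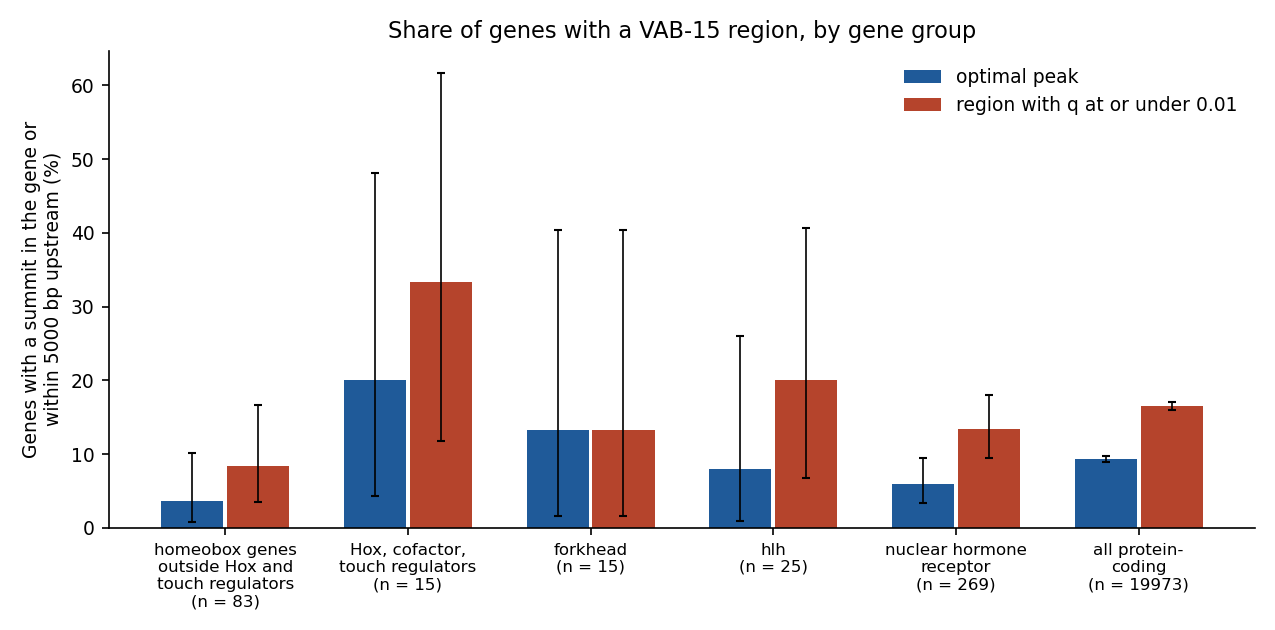
Share of genes (y axis, %) with a summit in the gene or within 5000 bp upstream, for optimal peaks (blue) and for pooled regions of q at or under 0.01 (red), with exact 95% intervals over genes as error bars; the groups between are the 15 Hox, cofactor and touch regulator genes and the forkhead, hlh (basic helix-loop-helix) and nuclear hormone receptor genes. The homeobox genes on the left stand at 3.61% and 8.43%, and all protein-coding genes on the right at 9.28% and 16.6%.

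In percentage points the shares lay farthest apart at the limits of 5000 and 10000 regions. Among the 5000 strongest regions, a summit lay at 12 of 83 homeobox genes (14.5%, exact 95% interval 7.70 to 23.9), against 29.6% of all protein-coding genes. Among the 10000 strongest it was 24 homeobox genes (28.9%, exact 95% interval 19.5 to 39.9), against 44.5% of all genes. Of the 9 rank limits computed, these were the ones whose interval lay below the share of all genes. No homeobox gene was reached by the 100 strongest regions, against 252 of all protein-coding genes (1.26%), and 0 of 83 allows a share of up to 4.35% by the exact 95% interval.

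**Figure D2:**
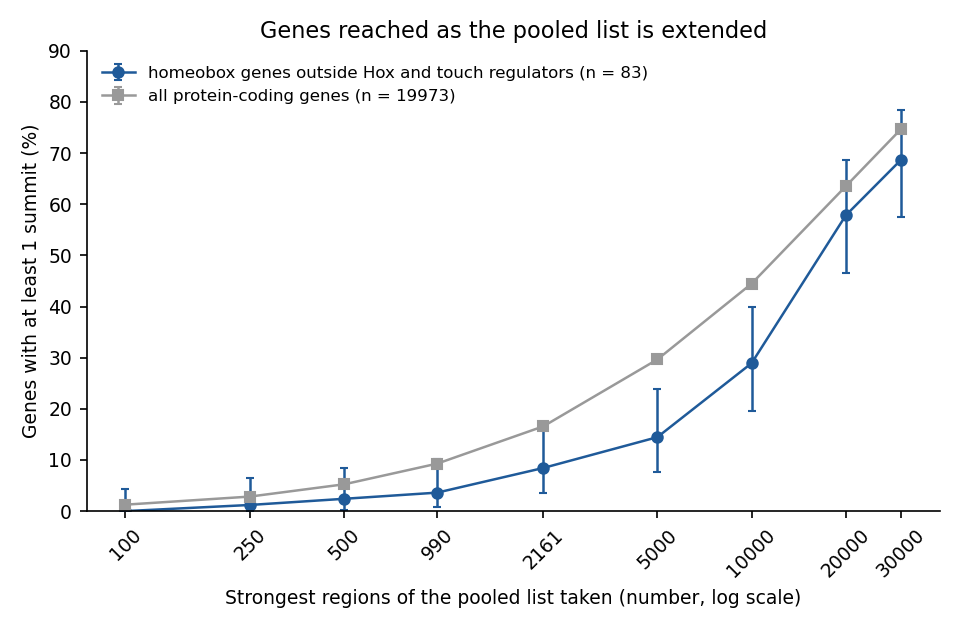
Percent of genes with at least 1 summit (y axis) as the pooled list is taken down to a given rank (x axis, log scale), for the 83 homeobox genes (blue circles) and all protein-coding genes (grey squares), with exact 95% intervals over genes. The homeobox genes lie below all genes at every limit drawn, at 14.5% and 29.6% for the 5000 strongest regions.

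Homeobox genes were longer, with a median of 3346 bp, against 2027 bp for all protein-coding genes, so more sequence was searched for each. Per base the homeobox windows, 0.758 Mb in all, held 5.28 optimal peaks per Mb (exact Poisson 95% interval 1.44 to 13.5), against 10.3 in the windows of all protein-coding genes. Regions of any rank in the pooled list numbered 172, or 227 per Mb (exact Poisson 95% interval 194 to 264), against 311 per Mb at all protein-coding genes. The interval for regions of any rank lies below the value of all genes, and the interval for optimal peaks includes it. Their median signal, 41.2 at homeobox genes, was close to the 41.6 at all protein-coding genes.

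Homeobox genes left out of the list by its rule were searched in the same way. Of 15 Hox genes, TALE cofactors and touch neuron regulators, vab-15 included, 3 held an optimal peak (exact 95% interval 4.33% to 48.1%), against 9.28% of all protein-coding genes. Those peaks were at vab-15 itself, at unc-62, which encodes a Meis-class Hox cofactor (rank 323), and at the Hox gene mab-5 (rank 602). Among nuclear hormone receptor genes, a large family of worm transcription factors, optimal peaks reached 16 of 269 (5.95%, exact 95% interval 3.44 to 9.48). By share of genes, the intervals of these groups include the 9.28% of all protein-coding genes and overlap the interval of the homeobox genes. Per base, the 15 genes held 41.5 optimal peaks per Mb (exact Poisson 95% interval 15.2 to 90.3), against 10.25 at all protein-coding genes. The interval of the 15 genes lies above that value and above the 1.44 to 13.5 of the homeobox genes, but 4 of the 6 peaks were at vab-15. Nuclear hormone receptor genes held 9.09 per Mb (5.29 to 14.55), an interval that includes the value of all genes and overlaps that of the homeobox genes. The differences were not tested.

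CUT-class genes made up 4 of the 7 homeobox genes with a region of q at or under 0.01. The CUT class joins a homeodomain to CUT domains, and its ONECUT members in this worm are known to act broadly in neurons. The class has 7 members here, and those 4 were ceh-38, ceh-21, ceh-39 and dve-1. All 7 had some region in the pooled list, as had 74.7% of all protein-coding genes. Among the other 76 homeobox genes, 3 had such a region, namely pax-3, irx-1 and ceh-14, against 16.6% of all protein-coding genes. This split was seen in the data and was not tested. It rests on few genes, and ceh-21 and ceh-39 are neighbours on chromosome X. Their strongest regions lay nearest to the starts of other genes, and ranked only 24531 and 18901 in replicate 2. Of those 4 CUT-class genes, only ceh-38 had a region of q at or under 0.01 in the list of each replicate. On X, a region of q at or under 0.01 lay at 4 of 24 homeobox genes, against 15.3% of all protein-coding genes there, so the X-linked homeobox genes stood near the share of their chromosome. It lay at 2 of 18 on II, against 15.5% of all protein-coding genes there, and at 1 of 12 on I, against 23.8%. It lay at 0 of 9 on III, against 24.6%, at 0 of 5 on IV, against 14.8%, and at 0 of 15 on V, against 10.7%. Counts this small cannot set the chromosomes apart.

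ceh-44 would add to the strong regions of the CUT class. Its gene model in Ensembl lies on chromosome III from 2530613 to 2546420. An optimal peak 1809 bp upstream ranked 644 in the pooled list (signal 129.6), 531 in replicate 1 and 2045 in replicate 2, and rbc-2 had the nearest start. Inside the gene, regions of q at or under 0.01 ranked 1438, 2077 and 2157, and the one at rank 2077 stood at rank 213 in replicate 2, against 8673 in replicate 1. With ceh-44 counted, 4 of 84 homeobox genes had an optimal peak (4.76%, exact 95% interval 1.31 to 11.7), against 9.28% of all protein-coding genes, and 8 had a region of q at or under 0.01 (9.52%), against 16.6%. The share reached by the 5000 strongest regions was then 15.5% (exact 95% interval 8.51 to 25), against 29.6% of all protein-coding genes. This count was added after the data were seen.

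**Figure D3:**
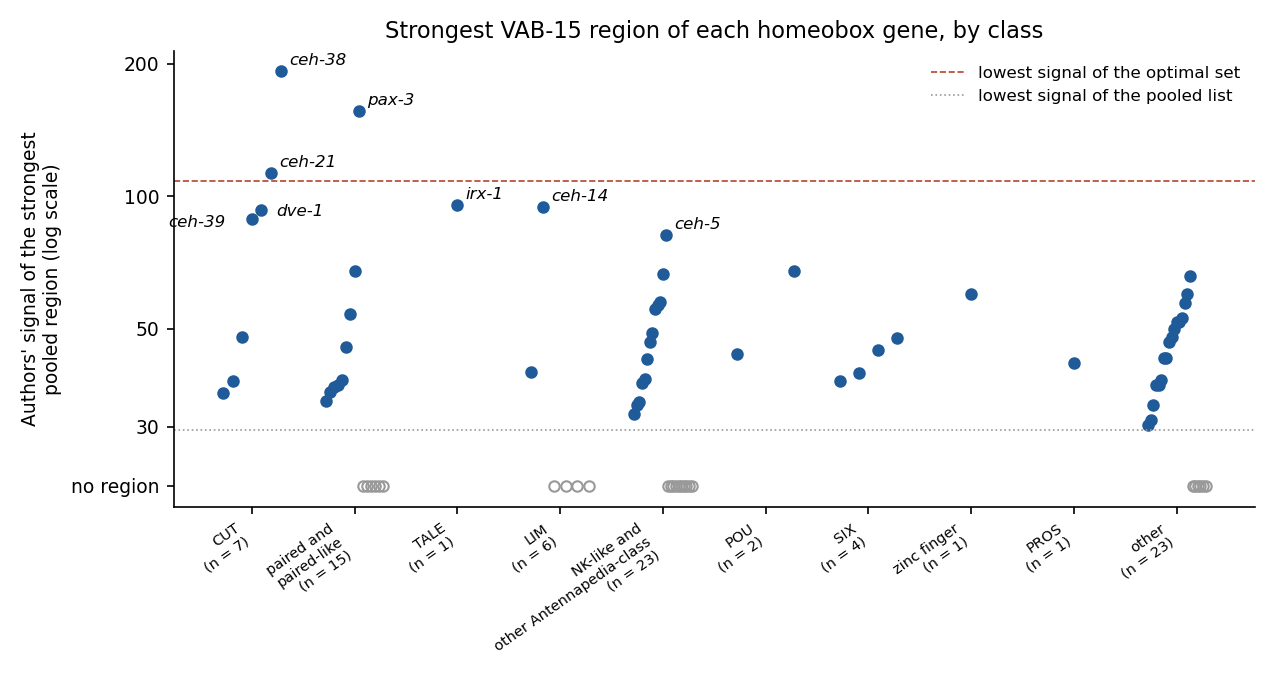
Authors' signal of the strongest pooled region of each homeobox gene (y axis, log scale), by homeobox class (x axis). Filled points are genes with a region, open points are genes with none, the dashed line is the lowest signal of the optimal set (108) and the dotted line that of the pooled list (29.5); ceh-38, pax-3 and ceh-21 lie above the dashed line.

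ceh-38 (WBGene00000459, chromosome II from 6951526 to 6955409, plus strand), which encodes a ONECUT protein, carried the strongest region of all 83 genes. Its region on chromosome II, from 6951354 to 6951729, ranked 218 in the pooled list with a signal of 192. It had a signal of 138.6 and rank 211 in replicate 1, and a signal of 58.2 and rank 285 in replicate 2. Both replicates thus held it high in their lists. The summit lay 16 bp inside ceh-38 and 242 bp from the start of malt-1, a gene on the opposite strand that encodes a MALT1-like protein. The peak therefore stands in a promoter shared by diverging genes, and the data do not say to which it belongs. A second region 718 bp inside ceh-38 ranked 2222 in the pooled list, 1902 in replicate 1 and 945 in replicate 2.

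Among the 83, pax-3 (WBGene00003939, chromosome II from 10146570 to 10152865, plus strand) was the only homeobox gene of the list with more than 1 optimal peak. It encodes a paired-box homeodomain protein of the Pax3/7 class, with a known role in the fates of epidermal cells. The stronger peak, on chromosome II from 10147496 to 10147871, lay in intron 3 of 6, 1114 bp inside the gene. It ranked 392 in the pooled list (signal 156), 469 in replicate 1 (signal 103.5) and 499 in replicate 2 (signal 49.2). The weaker peak, from 10149149 to 10149524, lay in intron 5, 2767 bp inside the gene, and ranked 732 in the pooled list (signal 122.4), 1088 in replicate 1 (signal 75.6) and 578 in replicate 2 (signal 46.2). Both intronic peaks were thus present in both replicates, and the nearest protein-coding start to each was that of pax-3. A weaker intronic region, 4760 bp inside the gene, ranked 7160 in the pooled list and was listed in replicate 1 but not in replicate 2. No pooled region lay in the 5000 bp upstream of pax-3.

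ceh-21 (WBGene00000444, chromosome X from 1848779 to 1852736, minus strand) held its peak mostly on the strength of 1 replicate. The gene encodes a ONECUT protein and stands in a cluster on chromosome X with ceh-39 and ceh-41. Its peak, from 1853603 to 1853978, had a signal of 112.8 and ranked 897 in the pooled list. It ranked 571 in replicate 1 (signal 96.5), against 24531 in replicate 2 (signal 13.9). The summit lay 1055 bp upstream of ceh-21, 83 bp beyond the 3′ end of ceh-39 and 58 bp inside T26C11.9, whose start is the nearest. When optimal peaks were kept only if they lay among the 990 strongest regions of 1 replicate, ceh-38, pax-3 and ceh-21 all remained with replicate 1, and ceh-38 and pax-3 with replicate 2. Genes reached in the pooled list by a region among the 990 strongest of both replicates were ceh-38 and pax-3, 2 of 83 (2.41%), against 5.39% of all protein-coding genes.

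**Figure D4:**
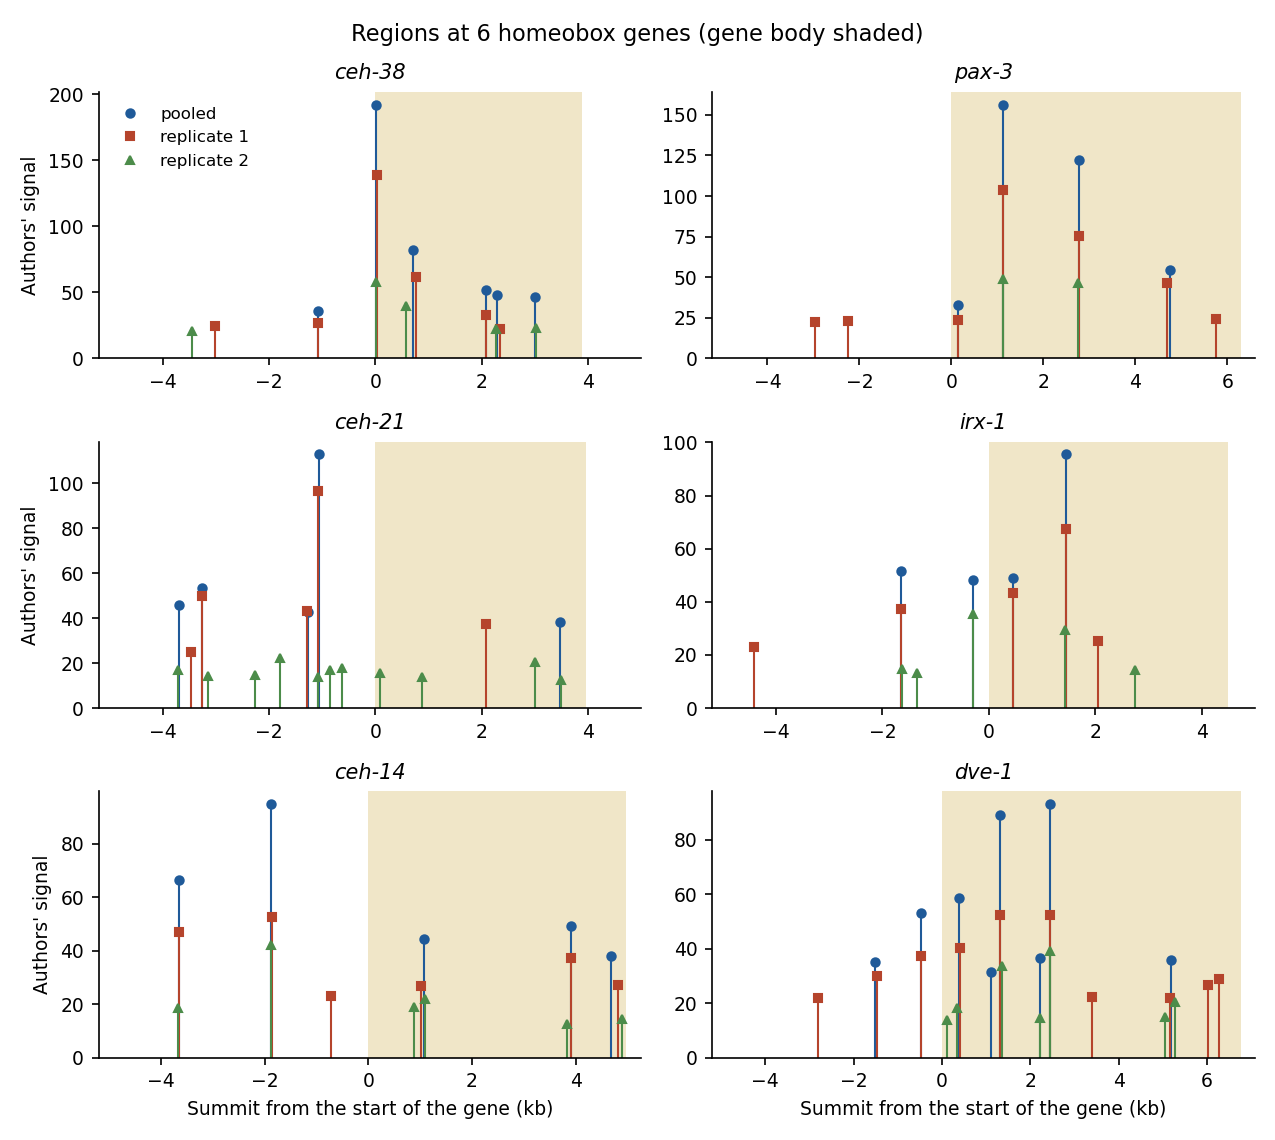
Authors' signal (y axis, linear) of every listed region by the distance of its summit from the start of the gene (x axis, kb, positive into the gene, gene body shaded) at 6 homeobox genes, for the pooled list (blue circles), replicate 1 (red squares) and replicate 2 (green triangles). The peaks of ceh-38 and pax-3 appear in both replicates, while that of ceh-21 is high in replicate 1 (96.5) and low in replicate 2 (13.9).

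Just below the optimal set, whose weakest peak had a signal of 108, came irx-1, ceh-14, dve-1 and ceh-39. irx-1, an Iroquois-class gene with a known part in remodelling GABA motor neurons, had its strongest region on chromosome I, from 9539326 to 9539701, in intron 2 of 4, with a signal of 95.5. That region ranked 1412 in the pooled list, 1489 in replicate 1 and 2654 in replicate 2. In the list of replicate 2 the strongest region at irx-1 was another one, 302 bp upstream of the gene (rank 1388), which ranked only 10137 in the pooled list. The replicates thus placed their strongest irx-1 region at different positions.

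ceh-14, a LIM-homeodomain gene of the Lhx3/4 class known for its part in sensory neuron identity, had a region 1872 bp upstream, on chromosome X from 7534416 to 7534791. Its signal was 94.7 and its rank 1436 in the pooled list, with rank 3141 in replicate 1 and rank 758 in replicate 2. The summit lies inside an annotated noncoding RNA gene, F46C8.15, and ceh-14 has the nearest protein-coding start. dve-1 encodes a divergent CUT-class protein related to SATB proteins, known for its part in the mitochondrial stress response. It held 2 regions of q at or under 0.01, one in intron 4 of 8 at rank 1514 (signal 93.2) and one 243 bp upstream of an internal start at rank 1701 (signal 89.3). The intronic region ranked 3156 in replicate 1 and 955 in replicate 2. For both ceh-14 and dve-1, then, the region stood higher in replicate 2 than in replicate 1, the reverse of ceh-21.

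The windows of ceh-14 and dve-1 are shown to set these replicate 2 regions beside the optimal peaks. Capitals again mark TAAT on either strand.

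ceh-14, chrX:7534554-7534654: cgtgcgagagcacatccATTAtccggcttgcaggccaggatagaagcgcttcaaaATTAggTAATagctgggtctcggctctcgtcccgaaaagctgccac
dve-1, intron 4, chrX:431318-431418: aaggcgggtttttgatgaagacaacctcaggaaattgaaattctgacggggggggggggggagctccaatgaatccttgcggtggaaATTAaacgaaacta

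The ceh-14 window holds TAAT or ATTA at 3 places, and the dve-1 window holds 1 such match beside a long run of G. ceh-39, a ONECUT gene that counts among the X-chromosome signals of sex determination, had its strongest region 2621 bp upstream, from 1858605 to 1858980 on chromosome X. That region had a signal of 88.96 and ranked 1720 in the pooled list, 1264 in replicate 1 and 18901 in replicate 2. Its summit lay 26 bp from a tRNA gene. A summit within 500 bp of a tRNA gene was also found for the strongest regions of ceh-43, ceh-90, pros-1 and ceh-89. That makes 5 of 57 homeobox genes (8.77%, exact 95% interval 2.91 to 19.3), against 1.94% of all protein-coding genes with a region. The count was made after the values were seen, and the part of the tRNA genes in these signals was not tested.

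Behind these genes came homeobox genes with no pooled region of q at or under 0.01, in a list that reaches down into background at a rank not known here. ceh-5, of the Vax-like class, ranked 2243 (signal 81.6), but its summit lay 4459 bp upstream and 6 bp from the start of eat-16, which encodes a regulator of G protein signalling. Another region at ceh-5, 1582 bp upstream, ranked 2637 in the pooled list. The replicate 1 list put it high, at rank 882 (signal 81.2), while no region of replicate 2 held its summit. ceh-45, of the goosecoid-like class, ranked 3835 (signal 67.8) with a summit 1145 bp upstream. ceh-18, which encodes a POU protein acting in the gonad, ranked 3863 (signal 67.7) with a summit in an intron. pal-1, the Caudal homologue that patterns the posterior of the embryo, ranked 4025 (signal 66.7), also in an intron. ceh-88 (rank 4130), zfh-2 (rank 5431), ceh-74 (rank 5449) and vab-7 (rank 6149) followed, with signals from 66.1 for ceh-88 to 57.5 for vab-7. The summits of the strongest regions of ceh-18, pal-1, ceh-88, zfh-2 and vab-7 fell in a region of replicate 1 and in none of replicate 2. At vab-7, replicate 2 did list a region that overlaps the pooled one, from 10921694 to 10922057 (rank 6930). zfh-2, which encodes a zinc finger homeodomain protein in a gene of 31398 bp, held 24 regions, the most of any of the 83 genes, and none of them ranked above 5431.

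The strongest pooled regions of the homeobox genes were looked up in each replicate. For the 57 homeobox genes with a pooled region, the summit of the strongest one fell in a listed region of replicate 1 in 43 genes, of replicate 2 in 36, and of both in 23. Replicate 1 thus listed 75.4% (exact 95% interval 62.2 to 85.9), against 85.3% of all protein-coding genes with a region. Replicate 2 listed 63.2% (exact 95% interval 49.3 to 75.55), against 69.6%. Both intervals include the share of all genes. Both replicates together listed 40.4% (exact 95% interval 27.6 to 54.2), against 58.4% of all protein-coding genes with a region, which lies above the interval. The strongest region per gene also ranked lower at homeobox genes, with a median best rank of 11068 among genes with a region, against 7389 for all protein-coding genes. The part of strength in the lower share listed by both replicates was not tested. Taken alone, the list of replicate 1 had a region of q at or under 0.01 at 6 homeobox genes (7.23%, exact 95% interval 2.70 to 15.1), against 16.3% of all protein-coding genes. The list of replicate 2 likewise had one at 6 (7.23%, with the same interval), against 16.3%. In each replicate alone, then, the interval lay below the share of all genes. Both lists named ceh-38, pax-3 and irx-1, which is 3 of the 6 in each, while for all protein-coding genes 64.0% of those in replicate 1 and 64.1% of those in replicate 2 were in both. These counts are by gene. At irx-1 the lists named different regions, 1454 bp inside the gene in replicate 1 and 302 bp upstream in replicate 2. Those of replicate 1 alone were ceh-21, ceh-39 and ceh-5, and those of replicate 2 alone were ceh-14, dve-1 and ceh-79.

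**Figure D5:**
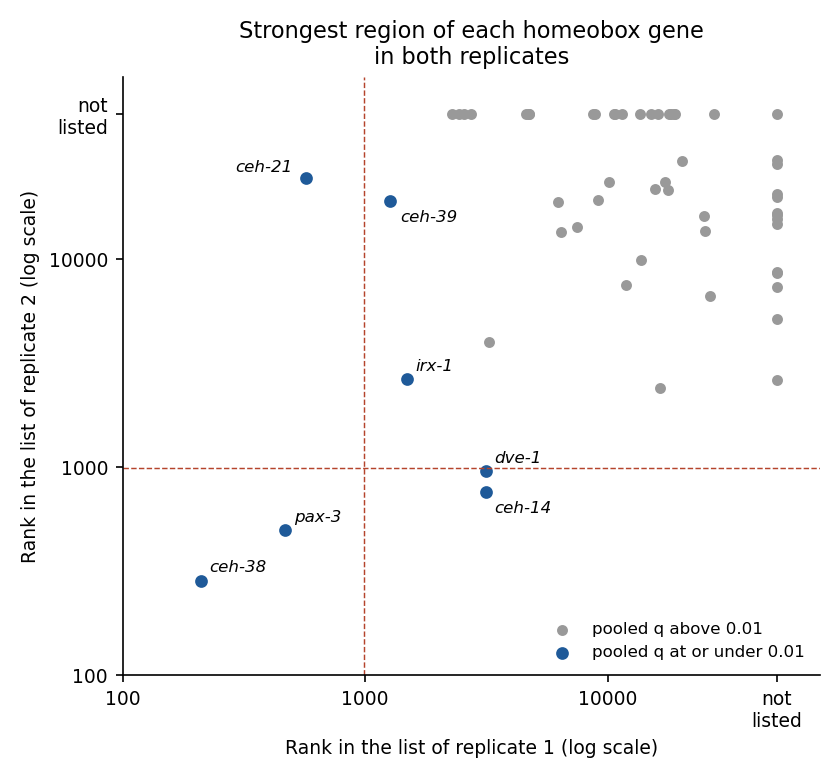
Rank of the strongest pooled region of each of the 57 homeobox genes in the list of replicate 1 (x axis, log scale) and replicate 2 (y axis, log scale), with dashed lines at rank 990. Points at "not listed" are regions whose pooled summit fell in no region of that list. ceh-38 and pax-3 lie inside both lines, ceh-21 inside that of replicate 1 and ceh-14 and dve-1 inside that of replicate 2.

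No region of the pooled list lay at 26 of the 83 homeobox genes (31.3%, exact 95% interval 21.6 to 42.4), against 25.3% of all protein-coding genes, which lies inside the interval. Among LIM-class genes, 4 of 6 had none, including ttx-3, which specifies the AIY interneurons, lim-4, which acts in AWB olfactory neurons, and lin-11, which acts in interneurons and in the vulva. Of 15 paired and paired-like genes 6 had none, among them unc-4, which acts in motor neurons, and ceh-36, which acts in ASE and AWC sensory neurons. Of 23 NK-like and other Antennapedia-class genes 10 had none, including mls-2 and ceh-12, an HB9-class gene that acts in VB motor neurons. All 4 SIX-class genes had a region, with unc-39 the strongest at rank 10374. Other genes known for neuronal identity did have a region, such as cog-1 (rank 11068), ttx-1 (rank 11898), unc-42 (rank 18254) and ceh-10 (rank 19253). The genes named here were singled out after their values were seen.

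An empty window here means a signal below the list's floor and not the absence of binding. In the lists of single replicates a region of any rank lay at 61 homeobox genes in replicate 1 (73.5%, against 75.9% of all protein-coding genes) and at 72 in replicate 2 (86.7%, against 81.5%). In no list was there a region at unc-4, ceh-23 or ceh-75. The share of homeobox genes with a region of any rank thus stood below that of all genes in replicate 1 and above it in replicate 2.

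Upstream of homeobox genes, regions of any rank in the pooled list were fewer per base than upstream of all genes. There were 195 per Mb searched (exact Poisson 95% interval 155 to 243), against 317 per Mb at all protein-coding genes. Such densities are not given here for the lists of single replicates. Inside the genes there were 268 per Mb (exact Poisson 95% interval 217 to 326), against 324 per Mb at all protein-coding genes, which lies inside the interval. The difference between the upstream and in-gene gaps was not tested. The in-gene pairs include most of the 24 regions of zfh-2, a gene of 31398 bp. Neither the in-gene density nor the in-gene share was computed without it. Of 178 pairs of a homeobox gene and a region, 97 (54.5%) had the summit in the gene, against 39.8% for all protein-coding genes, whose gene bodies are shorter. Of the strongest region of each homeobox gene, counted once where shared, 14 of 56 were promoter regions, within 1000 bp before a protein-coding start (25%, exact Clopper-Pearson interval from 14.4 to 38.4), against 37.6% of the strongest regions of all protein-coding genes. The share of all genes lies just inside that interval. With each summit counted only for the gene with the nearest start, the promoter share was 14.6% (7 of 48). The share of all genes under that rule is not given here, and the 37.6% does not apply to it. Coding exons held 18 of the 56 (32.1%), against 26.5% for all protein-coding genes. Introns held 13 (23.2%), against 17.8%, and intergenic sequence 7 (12.5%), against 12.9%. Another gene had the nearest start for 20 of the 57 strongest regions, as with ceh-21, ceh-39 and ceh-5. The share of all protein-coding genes is not given here, so that count cannot set homeobox genes apart from other genes.

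The TAATTG core was counted in the same windows. Within 50 bp of the summit, on either strand, 19 of 172 regions at homeobox genes held it (11.0%), against 7.09% of all 30000 regions. That difference was not tested. None of the 4 optimal peaks at homeobox genes held it (exact 95% interval up to 60.2%), against 10.4% of all optimal peaks, an interval too wide to set the shares apart. None of the 9 regions of q at or under 0.01 held it, against 9.07% of all such regions, and 9 are too few to show a difference. The strongest region with TAATTG was that of ceh-45, at rank 3835.

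A promoter region of dve-1 (rank 5837) and a region 1298 bp upstream of ceh-43, a Distalless-class gene (rank 9304), also held it, and their windows are shown to set the longer core beside the windows above. Capitals mark TAATTG, which reads CAATTA on the other strand.

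dve-1, promoter, chrX:433380-433480: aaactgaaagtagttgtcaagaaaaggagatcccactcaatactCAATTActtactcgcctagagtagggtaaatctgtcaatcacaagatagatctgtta
ceh-43, chrIII:4451191-4451291: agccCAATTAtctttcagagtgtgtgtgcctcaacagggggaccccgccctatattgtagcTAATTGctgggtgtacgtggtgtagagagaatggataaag

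The ceh-43 window lies inside the noncoding RNA gene C28A5.8, and its summit fell in a region of replicate 1 but in none of replicate 2. It holds the core at 2 places, once on each strand, and the dve-1 window holds it once. A match of these letters is a description of the window and does not show that VAB-15 binds there.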

How the data were processed

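ChIP-seq regions of VAB-15 came from 2 biological replicates of 1 group. Each list holds the authors' deposited signal per region, a deposited -log10 q-value and a summit; the caller, its settings and the scaling of that signal are not stated in the labels or notes used here. Lists on ce11 were used, and those on ce10 were not. Depth is unknown.

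Genes came from Ensembl release 115 on WBcel235, the assembly of ce11. A gene was counted where a summit lay in it or within 5000 bp upstream. A summit within 1000 bp before any protein-coding start was classed as promoter; exon, intron, noncoding and intergenic classes came after, first match taken. No test between conditions was possible, so counts are set beside all protein-coding genes with exact 95% intervals. Genes named are those with an optimal peak, the 12 next by rank, and those among the 990 strongest of a replicate; others were named after their values were seen. Members, classes and lists were chosen with earlier results of these data known. Intron numbers follow the longest coding transcript. Scripts used Python 3.11.15, pandas 2.3.3 and SciPy 1.17.1, and the assignment of summits to genes was tested on simulated data.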

Additional observations from a re-analysis of the deposited data

How the results depend on the processing

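With optimal peaks at or above the median signal, 2 optimal peaks lay at homeobox genes in place of 4. With 1000 bp upstream, 4 homeobox genes had a region of q at or under 0.01 in place of 7, and with q at or under 0.001 it was 2. With each summit counted only for the gene with the nearest start, 5 had such a region in place of 7. By that rule 2 homeobox genes had an optimal peak in place of 3. The density of optimal peaks at homeobox genes was 0.515 times that at all protein-coding genes; it was 0.726 times with 2000 bp upstream, 0.639 times with 1000 bp upstream and 0.626 times with ceh-44 counted, an alternative added after the data were seen, and ran from 0.455 to 0.587 when either replicate was left out, where homeobox genes with an optimal peak numbered 2 to 3, their peaks 3 in both cases, and those with a region of q at or under 0.01 numbered 6 in both. It was below 1 under each alternative that gives a density; counting a summit only for the gene with the nearest start gives none. The promoter share of strongest regions was 14.6% by nearest start and 19.6% with a promoter of 500 bp, in place of 25%. Shares of all protein-coding genes are not given here for 1000 bp upstream, q at or under 0.001, the nearest start or a promoter of 500 bp. The cause of these shifts was not tested. No optimal peak at a homeobox gene held TAATTG with 25, 50 or 100 bp on each side, in the stronger peaks alone or without either replicate. Depth is unknown, and counts this small cannot show modest differences. No paired analysis was possible because the series has 1 group.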
